A study of Mus musculus with 4 samples.

Results

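The histone genes described here are the 68 of 31253 genes whose symbol in the deposited gene lists begins with H1f and a digit, H2ac, H2bc, H3c and a digit, H4c and a digit, or Hist1h to Hist4h. They comprise 10 linker histone (H1) genes, 17 H2A, 17 H2B, 12 H3 and 12 H4 genes. Variant genes with other symbols, such as H3f3b and H2az1, fall outside this set. The genes were followed in CD8+ T cells sorted from mouse tumours grown from MB49, a bladder carcinoma cell line, by droplet single-cell RNA sequencing (10x Genomics).

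There were 4 libraries, each made from CD45+ CD8+ cells of 3 mice combined. WT came from subcutaneous tumours in wild-type mice and KO from those in BFAR-CD8-KO mice, in which the T cells lack BFAR; both are labelled C57BL/6Slac and 10 to 12 weeks old. Young and Aged came from tumours in Rag1-/- hosts, which lack lymphocytes of the T and B lineages. The hosts were given CD8+ T cells by vein, from donors aged 8 weeks (Young) or 18 months (Aged), on the day of MB49 inoculation. The hosts were 8 to 10 weeks old. Their strain is labelled B6.129S7-Rag1tm0Mom/J for Young and B6.129S7-Rag1tm1Mom/J for Aged. The sources used here do not name what drives the BFAR deletion or which exons it removes. The labels give WT and KO a 3' kit and Young and Aged an immune profiling kit, so levels are compared within the KO and WT pair and within the Aged and Young pair, never across pairs.

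Histones package DNA: H2A, H2B, H3 and H4 form the core of the nucleosome, and H1 binds the DNA that enters and leaves it. Most of these genes are replication-dependent, being transcribed in S phase when new DNA must be packaged, and their mRNAs end in a conserved stem-loop bound by the protein SLBP in place of a poly(A) tail. Replication-independent histone genes, such as H1f0 and H1f10, give polyadenylated mRNAs outside S phase too. Both kits prime on poly(A) RNA per the labels, so an mRNA without a tail is captured poorly, and the counts below are of the captured part. Mki67 encodes Ki-67, a protein of cycling cells, and Mcm5 encodes a subunit of the helicase that opens DNA at replication origins.

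The stem-loop was searched for as GG, any 2 bases, CTTTT, any base, AG, any 2 bases and CC, on the transcribed strand of the GENCODE vM21 transcripts (GRCm38, mm10). It was found in 41 of the 68 genes, in each of these after the coding part, and in 31 of 21833 other protein-coding genes (0.142%). The form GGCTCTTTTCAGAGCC was the commonest, in 24 genes, and 6 genes, all of them H4, had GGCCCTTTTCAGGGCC. The sequences below show both forms and 2 others in genes that carried many of the counts, with the stem-loop in capitals and up to 5 bases on each side.
Hist1h2ap, chr13:21833029-21833044, minus strand: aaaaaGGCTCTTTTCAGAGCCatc
H2ac4, chr13:23751572-23751587, plus strand: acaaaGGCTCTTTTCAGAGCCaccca
H1f4, chr13:23621782-23621797, minus strand: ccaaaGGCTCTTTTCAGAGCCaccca
H1f3, chr13:23555787-23555802, plus strand: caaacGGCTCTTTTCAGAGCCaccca
H4c4, chr13:23581950-23581965, plus strand: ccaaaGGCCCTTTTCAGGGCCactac
H3c6, chr13:23561903-23561918, minus strand: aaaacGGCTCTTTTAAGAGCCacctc
H2ac20, chr3:96220418-96220433, minus strand: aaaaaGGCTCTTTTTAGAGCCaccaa

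These genes differ in what the annotation places after the stem-loop. The annotated Hist1h2ap transcript ends 3 bases past it and that of H2ac4 11 bases past it. Those of H4c4, H1f4 and H1f3 run on for 770, 1153 and 4884 bases. In all, 19 of the 41 transcripts run more than 100 bases past the stem-loop. For 13 of the 68 genes, H1f5 among them, the annotation gives no base after the stop codon, so the absence of the motif says only that it is not in the annotated transcript.

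The genes lie close together: 54 are on chromosome 13, 10 on chromosome 3, and 2 each on chromosomes 6 and 15. Their coding sequences are alike, which limits which gene a read can be assigned to. Of the 75-base windows of Hist1h2ap, 92.6% also occur in another gene, against 34.4% for H2ac8, 6.66% for H1f2 and 0 for H1f5, H1f0 and H1f10. In 29 of the 68 genes, over 50% of the windows are shared. Levels of single H2A, H2B, H3 and H4 genes are therefore uncertain, and sums over a family are less so. H1f4 and H2bc6 overlap on the same strand, and reads from the shared stretch cannot be told apart.

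Promoters, as 250 bases before to 50 after the start in RefSeq (GRCm38.p6), were matched by symbol for 55 of the 68 genes. CCAAT, searched on both strands, was present in all 14 H2A, 12 H2B and 10 H3 promoters, in 7 of 10 H1 and in 3 of 9 H4 promoters, and in 37.9% of all 27025 promoters. The octamer ATTTGCAT was found in 6 of 14 H2A and 6 of 12 H2B promoters, in none of the H1, H3 and H4 promoters, and in 1.75% of all. AAACACA, the H1 box, was found in 5 of 10 H1 promoters, in 2 H2A and 2 H2B promoters, and in 7.14% of all. TATAAA was found in 4 of 10 H1, 10 of 14 H2A, 6 of 12 H2B, 4 of 10 H3 and 6 of 9 H4 promoters, and in 14.2% of all. A match is a description of the letters and not a measured binding site. The lines below give the 120 bases before the start of 3 H1 genes, which share both motifs at a like distance but differed in how far their levels followed Mki67, and the 179 bases between the divergent H2ac8 and H2bc8 genes. Capitals mark AAACACA and CCAAT, or ATTTGCAT and CCAAT, on either strand.
H1f5, chr13:21780626-21780745, minus strand: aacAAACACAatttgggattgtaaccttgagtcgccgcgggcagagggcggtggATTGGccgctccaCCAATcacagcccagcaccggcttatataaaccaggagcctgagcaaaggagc
H1f2, chr13:23738687-23738806, plus strand: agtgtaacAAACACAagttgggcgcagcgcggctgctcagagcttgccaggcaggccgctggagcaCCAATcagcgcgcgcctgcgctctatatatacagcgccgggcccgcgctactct
H1f4, chr13:23622559-23622678, minus strand: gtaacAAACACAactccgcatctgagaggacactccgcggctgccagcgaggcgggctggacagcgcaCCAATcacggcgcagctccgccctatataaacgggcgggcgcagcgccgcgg
H2ac8 and H2bc8, chr13:23571221-23571399, plus strand: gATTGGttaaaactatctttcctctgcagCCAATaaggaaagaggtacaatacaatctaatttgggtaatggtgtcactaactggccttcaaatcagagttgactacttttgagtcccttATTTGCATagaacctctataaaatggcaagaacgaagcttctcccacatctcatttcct

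Barcodes were used with at least 1000 UMIs (unique molecular identifiers, each counting 1 captured molecule), 500 genes, at most 10% mitochondrial UMIs and at least 1 UMI each of a CD3 and a CD8 gene. The cells used numbered 8966 for WT, 8153 for KO, 9803 for Young and 8252 for Aged, with 60805219 to 76204380 UMIs per library and medians of 4510 to 6870 UMIs per cell. Bfar, the targeted gene, was at 32.1 CPM (UMIs of the gene per 1000000 UMIs of the library) in WT, 22.4 in KO, 22.1 in Young and 26.0 in Aged, a KO over WT ratio of 0.697; since the deleted exons are not given, it is not known whether the counted end of the transcript was deleted. The CD3 genes summed to 2698 to 3035 CPM and the CD8 genes to 1283 to 1752 CPM. Markers of other cell types were present in the same barcodes. The 5 tumour or epithelial markers summed to 346, 114, 192 and 48.8 CPM in WT, KO, Young and Aged, and the 4 fibroblast markers to 222, 33.7, 27.7 and 10.8. The 4 mast cell or basophil markers summed to 284, 99.8, 1.12 and 0.94 CPM, the 5 monocyte or macrophage markers to 21.7, 10.2, 65.5 and 33.3, the 4 dendritic cell markers to 0.87 to 20.9, the 3 endothelial markers to 14.6 to 20.5, and the 3 neutrophil markers to 0.29 to 6.51. The B cell marker Ms4a1 was at 0 in WT and KO, Ms4a2 in Young, Siglech in KO and Cd209a in Aged. Barcodes with 3 or more UMIs of any of these markers numbered 370, 185, 601 and 265, and values without them are given beside several results. Within the pairs, 16 barcode sequences were shared between WT and KO and 114 between Young and Aged. With 1 library in each group there is no replicate spread and no test; the 95% intervals given are exact and cover counting error only, and genes or libraries are called higher or lower by size alone.

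A histone transcript was counted for most of the genes. At least 1 UMI was found for 63 of the 68 genes in WT, 62 in KO, 65 in Young and 64 in Aged, and H2bc1, H2ac1 and H1f7 had none in any library. Summed over the family, the level was 1412 CPM in WT, 1417 in KO, 1797 in Young and 2228 in Aged. The 6 genes with most UMIs held 63.0%, 64.5%, 59.2% and 60.8% of these counts. The 10 H1 genes alone held 35.1% in WT, 32.1% in KO, 45.0% in Young and 46.6% in Aged. Because 1 UMI is 1 captured molecule end, levels are not divided by transcript length, and the order of genes is an order of captured molecules.

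Among the linker histones, H1f4 was at 108.3 CPM in WT, 107.6 in KO, 257 in Young and 364 in Aged. H1f2 was at 142, 137, 166 and 212 CPM, and H1f5 at 142, 137, 174 and 201 CPM, in the same order. H1f3 was at 29.3, 26.1, 121 and 155 CPM. The KO over WT ratios of these 4 somatic H1 genes lay between 0.891 (H1f3) and 0.994 (H1f4), and each of the 4 was higher in Aged than in Young. The replication-independent H1f0 (chr15:79028450-79030504), known for accumulating in cells that have stopped dividing, was at 52.6, 34.6, 46.8 and 62.8 CPM. H1f10 (chr6:87980421-87981637) was at 12.0, 4.25, 10.6 and 7.43 CPM.

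Of the core histones, Hist1h2ap, an H2A gene, was at 273 CPM in WT, 285 in KO, 165 in Young and 214 in Aged, and was the histone gene with most UMIs in WT and KO. H2ac8 was at 144 CPM in WT, 145 in KO, 181 in Young and 209 in Aged. H2ac4, H2ac20 and H2ac15, also H2A genes, were lower, at 28.9, 31.6 and 7.9 CPM in WT and 45.4, 36.0 and 51.4 CPM in Aged. The leading H4 gene was H4c4, at 78.8, 103, 84.9 and 108 CPM, and the leading H3 gene was H3c6, at 28.5, 30.9, 53.4 and 61.5 CPM. No H2B gene was among the 12 genes with the highest mean level. The H2B family summed to 127 CPM in WT, 118 in KO, 156 in Young and 176 in Aged, and the H4 family to 148, 174, 166 and 209 CPM.

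**Figure D1:**
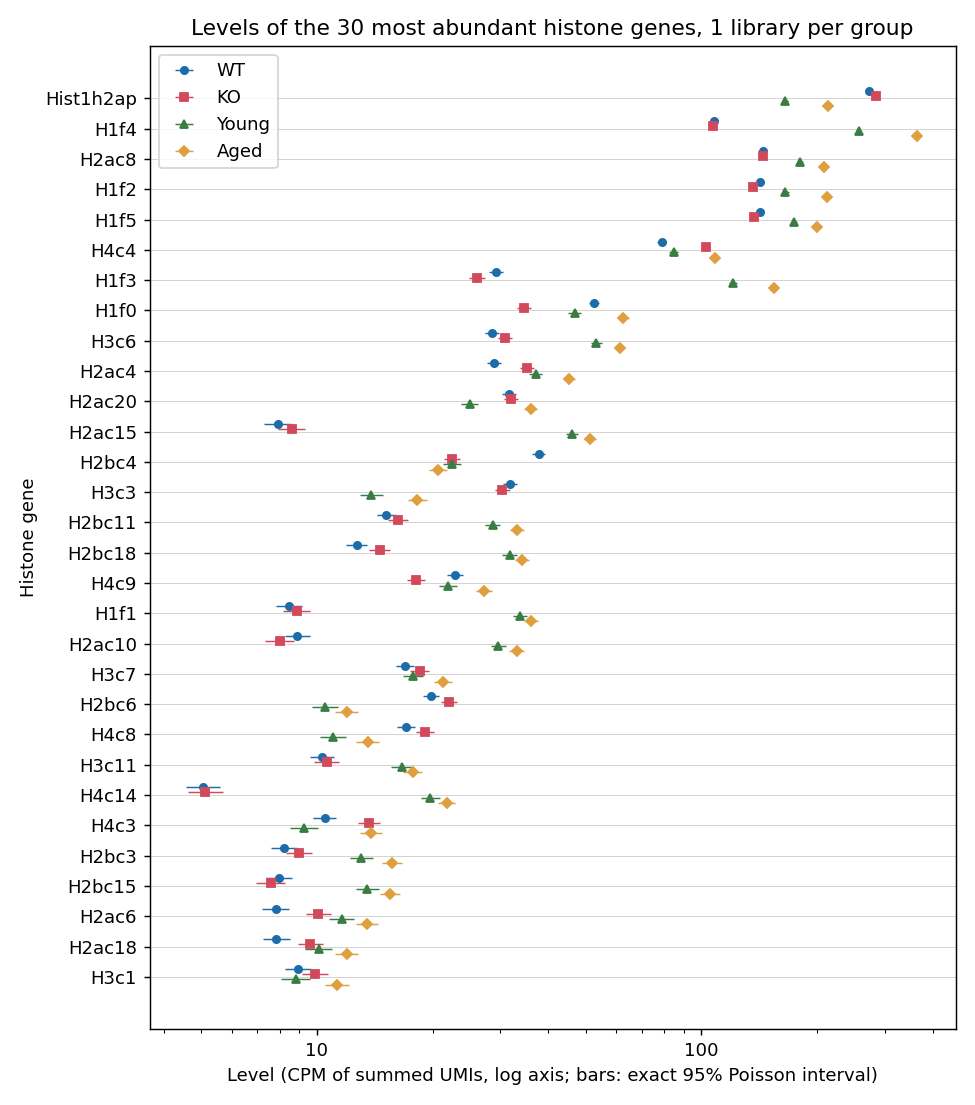
Level of the 30 histone genes with the highest mean, in CPM of summed UMIs on a log axis, with 1 point per library and bars for the exact 95% Poisson interval. Hist1h2ap leads in WT and KO and H1f4 in Young and Aged.

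Histone transcripts were concentrated in cells in which Mki67 was detected. These Mki67-positive cells, with 1 or more Mki67 UMIs, made up 13.4% of WT, 12.4% of KO, 17.8% of Young and 19.6% of Aged cells. They held 74.3%, 73.4%, 83.1% and 84.6% of the histone UMIs, against 26.0%, 21.9%, 33.7% and 35.8% of all UMIs. The summed histone level in Mki67-positive cells was 8.24 times that in Mki67-negative cells in WT (interval 8.13 to 8.35), 9.87 times in KO (9.73 to 10.01), 9.68 times in Young (9.52 to 9.83) and 9.85 times in Aged. Mki67-positive cells were also larger by UMIs, with medians of 12272, 12165, 9281.5 and 11773 against 6030, 6589.5, 4149 and 5253. With each cell thinned to 2000 UMIs before Mki67 was scored, which left out 80, 45, 611 and 201 cells, the ratios were 8.60, 10.4, 8.39 and 7.68.

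Most of the family took part. With at least 50 UMIs in a library, 51 of 57 histone genes in WT were 2 times or more higher in Mki67-positive cells, where 16.2% of all such genes were. The counts were 51 of 56 in KO (10.2% of all genes), 55 of 55 in Young (12.4%) and 55 of 56 in Aged (8.28%). At 10 times or more, the counts were 21 of 57 in WT (1.6% of all genes), 23 of 56 in KO (1.43%), 25 of 55 in Young (1.07%) and 30 of 56 in Aged (1.21%). The median log2 ratio of the histone genes was 2.80, 2.82, 3.13 and 3.44, beside 0.12, 0.09, 0.08 and 0.04 for all genes measured.

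The genes differed widely in how far they followed Mki67. Among the genes that reached 10 CPM in both pairs, H2ac4 had the highest mean log2 ratio: its level in Mki67-positive cells was 81.9 times that in Mki67-negative cells in WT, 116 times in KO, 40.3 times in Young and 42.0 times in Aged. For H1f5 the ratios were 38.5, 60.8, 24.8 and 35.4, and for Hist1h2ap 36.1, 42.4, 26.5 and 28.6. Of the 57 genes with at least 50 UMIs in each pair, 9 had a ratio of 20 or more in every library: Hist1h2ap, H2ac8, H1f5, H2ac4, H3c3, H2ac10, H2bc3, H3c2 and H2bc12. Another 8 had a ratio below 4 in every library: H1f2, H1f0, H2bc4, H4c9, H4c3, Hist1h4n, Hist1h4m and H2bc21. The share of all genes within these limits was not counted. At most 16.2% of all genes reached a ratio of 2 in any library, so a ratio below 4 is usual. H1f0 had the lowest mean log2 ratio among the genes that reached 10 CPM in both pairs, with 2.58 in WT, 1.81 in KO, 2.21 in Young and 1.86 in Aged. Without barcodes holding markers of other cell types the H1f0 ratios were 1.66, 1.64, 1.27 and 1.87, so the values of WT and Young fell by more than 1.5 times. H2bc21, at 0.862 CPM on average, had a ratio of 0.799 in KO with an interval that includes 1, and the other 56 genes were above 1 in every library.

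The linker genes H1f2, H1f4 and H1f5, whose promoters are printed above, differed from each other in this ratio. In Mki67-negative cells of WT, H1f2 was still at 126 CPM and H1f4 at 51.2 CPM, while H1f5 was at 13.2 CPM. The Mki67-positive cells held 34.5% of the H1f2 UMIs of WT, 65.0% of those of H1f4 and 93.1% of those of H1f5. In Aged the shares were 64.0%, 81.8% and 95.2%. The order of the 3 genes was the same in all libraries, with H1f2 ratios of 1.5, 1.74, 3.27 and 3.18 and H1f4 ratios of 5.29, 6.62, 8.56 and 8.04. By family, the summed H2A level was 26.0, 30.1, 22.1 and 24.0 times higher in Mki67-positive cells, and the summed H1 level 4.99, 5.95, 7.79 and 7.36 times.

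The length of the annotated transcript past the stem-loop was set beside these ratios as a description. The 20 genes whose transcript ends within 100 bases of the stem-loop had median Mki67 ratios of 9.28 in WT and 15.4 in KO, and the 16 genes whose transcript runs further had 4.52 and 5.81. In Young and Aged the medians were 9.20 and 11.0 for the first group and 8.22 and 8.95 for the second. The 21 genes without the motif had 8.71, 8.48, 9.45 and 11.2, and the ranges of all 3 groups overlapped widely in each library. A gap of at least 2 times in the ratio between the pairs was seen, after looking at the values, for 6 genes. The share of all genes with such a gap was not counted, so it is not known whether this number is particular to histone genes. H4c14, whose transcript runs 1257 bases past its stem-loop, had ratios of 1.5, 1.72, 7.20 and 8.70, and H2ac6 and H3c4 also had higher ratios in Young and Aged. H3c3, H2ac10 and H3c2 had higher ratios in WT and KO. For H2ac10 and H3c2 these rest on few molecules, with levels of 0.055 to 0.124 CPM in Mki67-negative cells of WT and KO. The H3c2 intervals of WT (102 to 610) and Aged (41.3 to 175) overlapped. Kit, version of the counting software, host, mouse strain and age, and the transfer of T cells differ between the pairs and cannot be told apart.

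**Figure D2:**
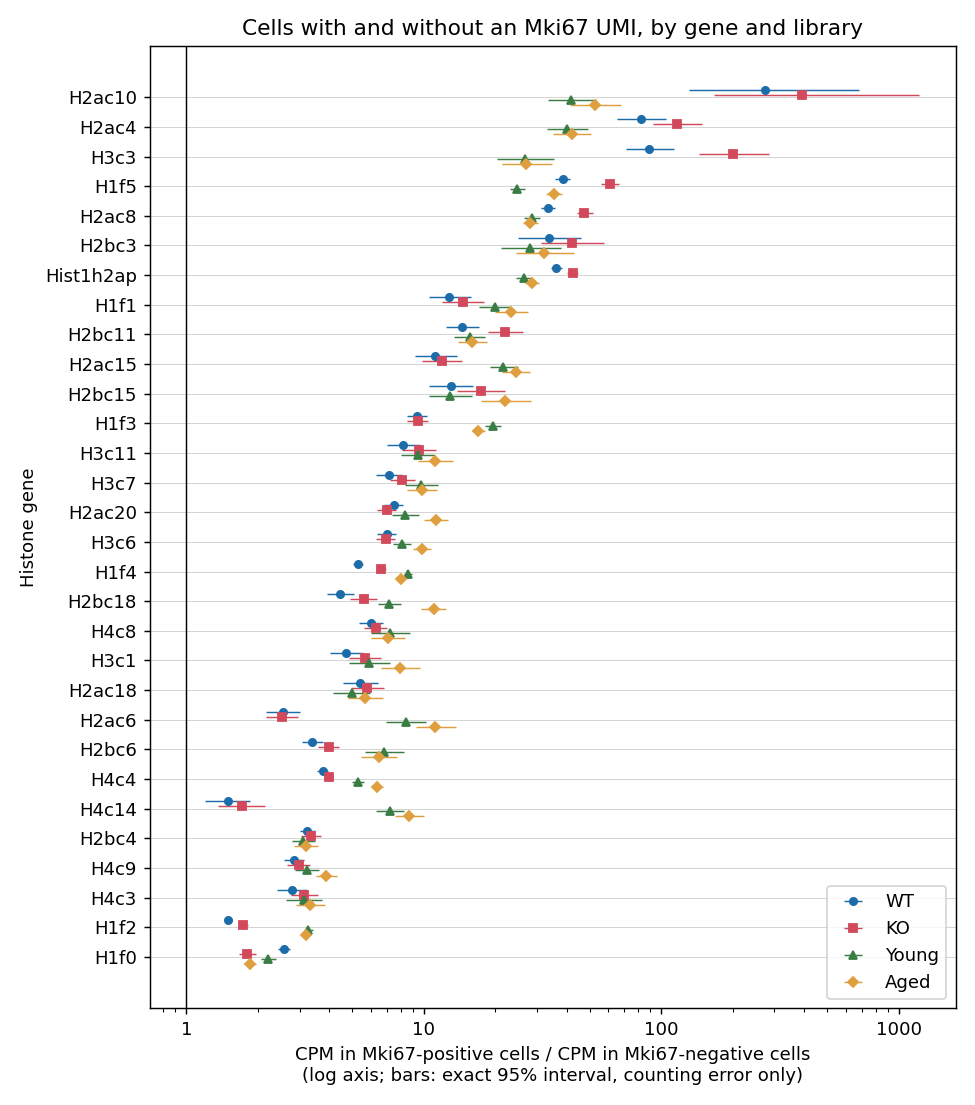
Ratio of the level in Mki67-positive to that in Mki67-negative cells (log axis) for the 30 histone genes with the highest mean level, by library, with exact 95% intervals for counting error; the vertical line marks a ratio of 1. The ratios run from below 4 for H1f0, H1f2, H4c3, H4c9 and H2bc4 to above 20 for Hist1h2ap, H2ac8, H1f5, H2bc3, H3c3, H2ac4 and H2ac10 in every library.

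Mcm5 divided the Mki67-positive cells further. Cells with a UMI of both had the highest summed histone level, at 4816 CPM in WT, 6353 in KO, 5003 in Young and 5913 in Aged. Cells with Mki67 but no Mcm5 UMI were at 2252, 1875, 2752 and 2409 CPM. Cells with Mcm5 but no Mki67 UMI were at 486, 434, 545 and 645 CPM, and cells with neither at 490, 490, 434 and 495 CPM. The Mcm5-only cells were thus the lower of the 2 classes in KO and the higher in Young and Aged. In WT the intervals of the 2 classes overlapped (472 to 501 and 484 to 497 CPM). Without the barcodes holding markers of other cell types, the cells with both were at 5961, 6976, 5922 and 6214 CPM, those with Mki67 only at 2366, 1910, 3291 and 2485, those with Mcm5 only at 455, 434, 549 and 643, and those with neither at 481, 488, 425 and 490 CPM. The cells with both also had the most UMIs, so detection of Mcm5 and size were not separated.

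By Mcm5 alone, 15.6%, 13.8%, 22.2% and 27.5% of cells were positive, and their summed histone level was 4.54 times that of Mcm5-negative cells in WT, 5.96 times in KO, 4.45 times in Young and 5.44 times in Aged. At 2 times or more, 46 of 57 histone genes were higher in WT (16% of all genes), 49 of 56 in KO (11.7%), 50 of 55 in Young (8.98%) and 52 of 56 in Aged (6.45%). At 10 times or more the counts were 9 in WT (1.12%), 16 in KO (2.62%), 1 in Young (0.114%) and 14 in Aged (0.408%). The summed ratio over Mcm5 was lower than that over Mki67 in each library, and with cells thinned to 2000 UMIs it was 2.55, 3.66, 3.23 and 3.36.

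**Figure D3:**
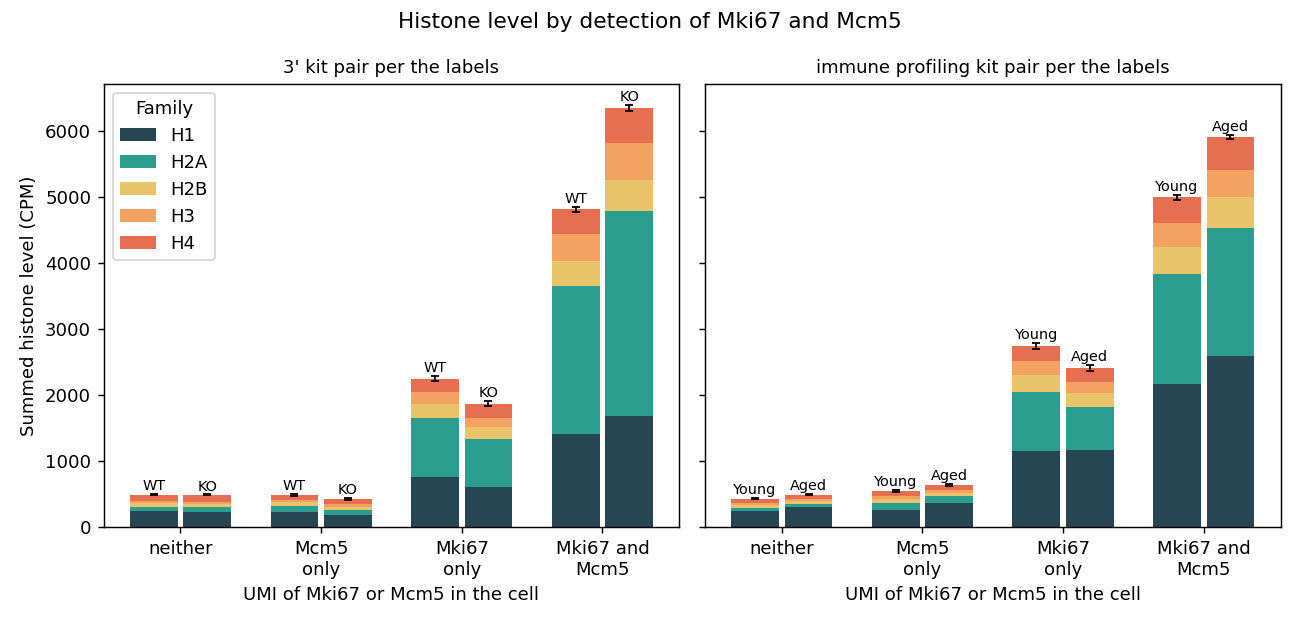
Summed histone level in CPM, stacked by family, in cells with a UMI of neither gene, of Mcm5 only, of Mki67 only and of both, for the KO and WT pair and the Aged and Young pair; bars start at 0 and the error bars are exact 95% Poisson intervals of the sum. Levels stay between 434 and 645 CPM in the first 2 classes and reach 4816 to 6353 CPM in cells with both.

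Detection per cell is given for a gene with a high and a gene with a low Mki67 ratio. Mki67 was scored here after thinning to 2000 UMIs, so cells that lost their Mki67 UMIs counted as Mki67-negative. In WT, 544 of 8886 thinned cells were positive, against 1197 of 8966 before thinning. In the thinned cells, Hist1h2ap was detected in 52.2% of Mki67-positive and 6.45% of Mki67-negative WT cells, and H1f2 in 32.7% and 19.7%. In Aged the shares were 53.3% and 5.57% for Hist1h2ap and 45.9% and 20.1% for H1f2. Any histone transcript was found in 82.5%, 83.4%, 86.3% and 88.9% of Mki67-positive cells of WT, KO, Young and Aged and in 56.6%, 57.2%, 49.8% and 54.6% of Mki67-negative cells. By Mcm5, also scored after thinning, the gap was smaller. Shares were 61.3%, 70.7%, 69.1% and 71.3% of Mcm5-positive and 58.1%, 58.1%, 51.6% and 56.3% of Mcm5-negative cells. The 2 WT intervals overlapped (56.3 to 66.1 and 57.0 to 59.1). Without thinning, any histone transcript was found in 87.0%, 88.7%, 74.0% and 82.2% of all cells. No cell type in the sort is known to lack histone transcripts, so the share due to free RNA was not measured. Read the other way, cells with 20 or more histone UMIs after thinning numbered 173 in WT, 170 in KO, 271 in Young and 305 in Aged. Of these, 73.4%, 75.3%, 68.3% and 66.2% had an Mki67 UMI and 79.8%, 81.8%, 79.7% and 79.0% had a UMI of Mki67 or Mcm5. Of cells with no histone UMI, 2.56%, 2.14%, 2.75% and 2.54% had an Mki67 UMI.

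KO and WT differed little in the histone family as a whole. The summed level was 1.00 times WT in KO (interval 0.995 to 1.01). By family the KO over WT ratio was 0.919 for H1, 1.05 for H2A, 0.927 for H2B, 1.04 for H3 and 1.18 for H4. The H4 value leans on H4c4, which held 6008 of 11276 H4 UMIs in WT and 7167 of 12123 in KO. Other H4 genes ran in both directions, such as H4c3 at 1.30 and H4c9 at 0.792. Measured genes are those that reached 20 UMIs in the pair and 10 CPM in either library. Of them, 0 of 24 histone genes were 1.5 times or more higher in KO, where 0.607% of all 7415 such genes were, and 3 of 24 were 1.5 times or more lower, where 3.09% of all genes were. The median log2 ratio was 0.05 for the histone genes and -0.05 for all genes. Of the 24, 15 were above a ratio of 1, where 36.2% of all genes were.

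The 3 lower genes were H1f10, with a KO over WT ratio of 0.353, H2bc4 with 0.596 and H1f0 with 0.658. H2bc4 is named because the count is small; it was not among the genes chosen by level. It is an H2B gene with 2 exons, at 37.7 CPM in WT and 22.5 in KO. Over all barcodes used, the tumour or epithelial markers summed to 346 CPM in WT and 114 in KO. Without the barcodes that held markers of other cell types the ratios were 1.19 for H1f10 (interval 0.968 to 1.46), 0.895 for H1f0 (0.842 to 0.952) and 0.761 for H2bc4 (0.704 to 0.822). None of the 23 genes then measured was 1.5 times lower, and the share of all genes that were was 0.349%. The highest KO over WT ratio was that of H4c4, at 1.31 (1.26 to 1.35), and it was 1.27 (1.22 to 1.31) without those barcodes. With at least 50 UMIs and no minimum level, 1 of 58 histone genes was higher (2.23% of all genes) and the same 3 were lower (13.2%); the higher one was H2ac13.

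Within Mki67-positive cells the KO over WT ratio of the sum was 1.18 (1.17 to 1.19), and in cells with neither Mki67 nor Mcm5 it was 0.999. Without barcodes holding markers of other cell types, these ratios were 1.07 and 1.02. For Hist1h2ap the ratio in Mki67-positive cells was 1.23, or 1.10 without those barcodes. With at least 50 UMIs in Mki67-positive cells, 2 of 55 histone genes were 1.5 times or more higher in KO, H2ac13 and H4c12 (2.71% of all genes), and H1f10, H2bc4 and H1f0 were lower (13.5%). In cells with neither gene, 1 of 48 was higher, H2ac13 (1.91%), and 3 were lower, H1f10, H2bc4 and H3c3 (7.99%). The share of Mki67-positive cells among cells thinned to 2000 UMIs was 6.12% in WT (5.63 to 6.64) and 5.34% in KO (4.86 to 5.85). Without barcodes holding markers of other cell types the thinned shares were 5.89% (5.40 to 6.41) and 5.21% (4.73 to 5.73), and the shares before thinning 12.4% and 11.9%. The share was thus lower in KO in each of these settings by size alone, with no test, while the level within Mki67-positive cells was higher in KO. The sum was 0.941 times WT with barcodes above 20000 UMIs removed, of which WT had 425 and KO 333.

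Most measured histone genes were higher in Aged than in Young over all cells. With at least 50 UMIs in Mki67-positive cells, 54 of 58 were above a ratio of 1, where 59.6% of all genes were. In cells with neither Mki67 nor Mcm5, 23 of 41 were, which is not above the 61.3% of all genes. Over all cells, the summed level was 1.24 times higher in Aged (interval 1.23 to 1.25). By family the ratio was 1.28 for H1, 1.22 for H2A, 1.13 for H2B, 1.18 for H3 and 1.26 for H4. Of 35 genes measured, 33 were above a ratio of 1, where 67.3% of all 7938 genes were, and the median log2 ratio was 0.24 beside 0.08 for all genes. None of the 35 was 1.5 times or more higher (2.62% of all genes) or lower (3.83%). The highest was H4c3, just inside that limit at 1.49 (1.34 to 1.66), with 9.28 CPM in Young and 13.9 in Aged. H2ac20 and H1f4 followed, with 1.44 and 1.42. The lowest was H1f10 at 0.702, and it was 1.14 without barcodes holding markers of other cell types. With at least 50 UMIs and no minimum level, 1 of 59 genes was higher, H2ac7 (5.78% of all genes), and none lower (12.4%).

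H1f0 had an Aged over Young ratio of 1.34 (1.28 to 1.41). Without barcodes holding markers of other cell types it was at 28.5 CPM in Young and 58.2 in Aged, a ratio of 2.04 (1.92 to 2.17). It was then the only 1 of 34 measured histone genes past 1.5 times in either direction, where 2.98% of all genes were higher and 1.91% lower. In cells with neither Mki67 nor Mcm5, again without those barcodes, the H1f0 ratio was 1.51 and in Mki67-positive cells 2.49. The tumour or epithelial markers summed to 192 CPM in Young and 48.8 in Aged before those barcodes were left out, and the H1f0 difference was larger without them.

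The Aged over Young ratio of the sum was smaller within classes of cells and without the cells of most UMIs. Within Mki67-positive cells the ratio of the sum was 1.19, and in cells with neither gene 1.14; without barcodes holding other markers they were 1.05 and 1.15. In Mki67-positive cells 39 of 41 measured genes were above 1, and 23 of 42 without barcodes holding other markers. In cells with neither gene 8 of 11 measured genes were, and 9 of 11 without those barcodes. The share of all measured genes above 1 was not counted in these sets of cells. Among all genes with at least 50 UMIs it was 59.6% in Mki67-positive cells and 61.3% in cells with neither gene. With at least 50 UMIs, 2 of 58 genes were 1.5 times or more higher in Mki67-positive cells, Hist1h4m and H2ac7 (6.41% of all genes), and 0 lower (12.8%). In cells with neither gene, 1 of 41 was higher, H3c13 (5.37%), and 3 were lower, H1f10, H2bc15 and H2ac10 (7.84%); 23 of these 41 were above 1, where 61.3% of all genes were. Without barcodes above 20000 UMIs, of which Young had 339 and Aged 444, the ratio of the sum was 1.04, and 16 of 31 genes were above 1. The share of all genes above 1 was not counted there. The Mki67-positive share was 17.8% in Young and 19.6% in Aged, and in thinned cells 9.40% (8.81 to 10.01) and 9.65% (9.01 to 10.3). Fewer histone molecules per cell and fewer cells with histone transcripts cannot be told apart in the summed levels.

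**Figure D4:**
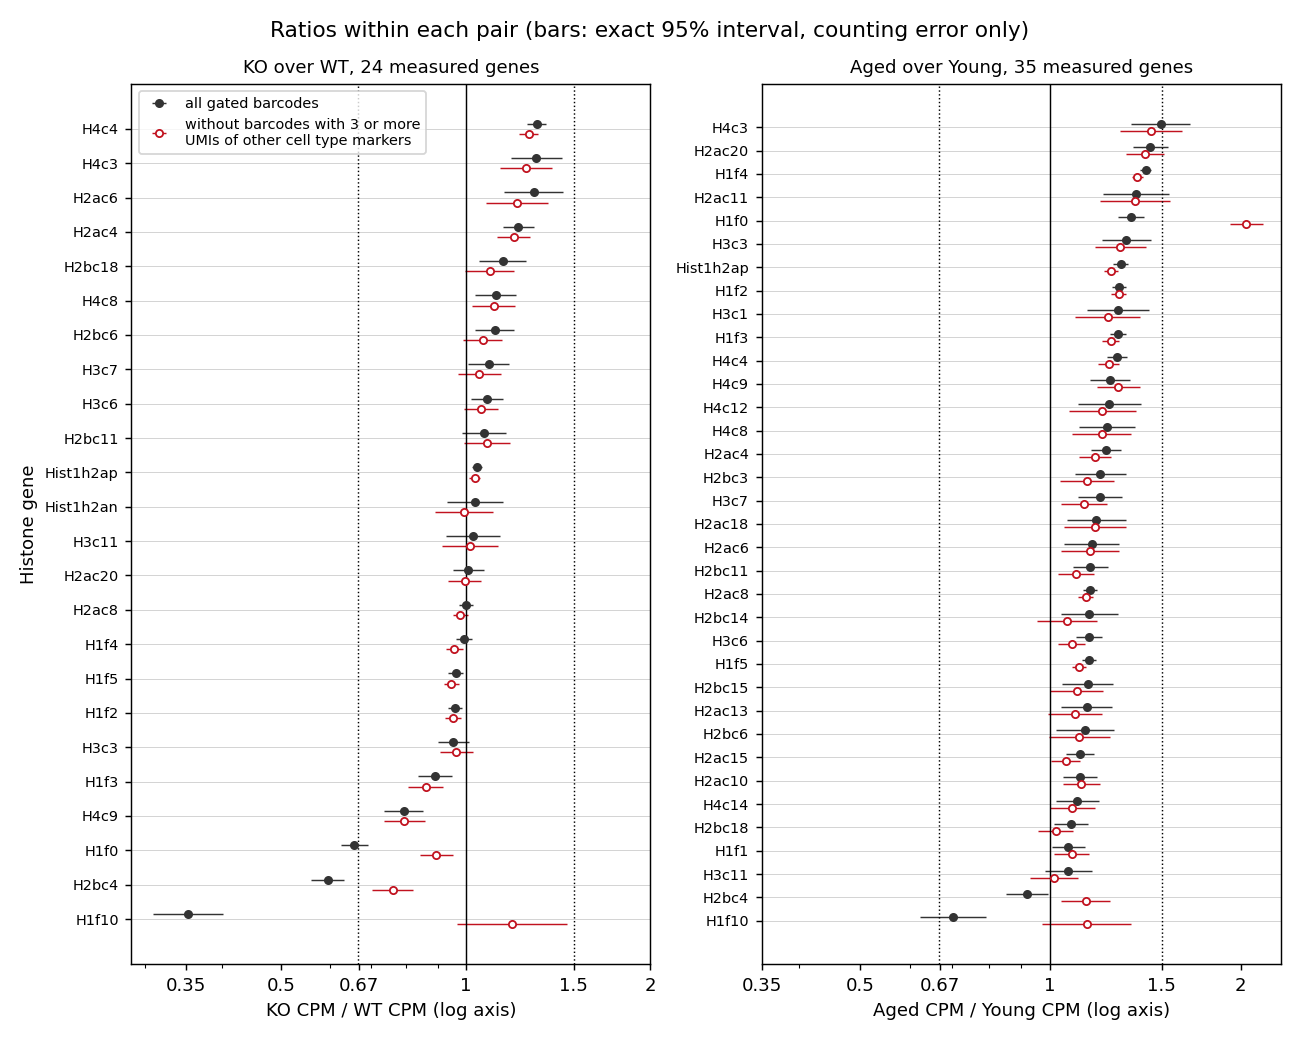
Ratio of levels, KO over WT and Aged over Young (log axes), for each histone gene with at least 20 UMIs and 10 CPM, in all gated barcodes (filled) and without barcodes holding 3 or more UMIs of other cell type markers (open), with exact 95% intervals; dotted lines mark a 1.5-fold difference. The open symbols of H1f10, H2bc4 and H1f0 lie closer to 1 than the filled ones for KO over WT, while for Aged over Young the open symbol of H1f0 lies at 2.04.

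Other genes of histone supply were taken from lists of histone mRNA processing, histone chaperones, replication-independent variants and cell cycle genes. For KO over WT, none of 16 processing genes, 18 chaperone genes and 30 S phase genes was past 1.5 times in either direction, where 0.607% of all genes were higher and 3.09% lower, with median log2 ratios of -0.05, -0.04 and -0.12. Slbp, whose protein binds the stem-loop, was at 136 CPM in WT and 148 in KO (ratio 1.09), and Npat, a coactivator of histone genes, at 23.9 and 24.9 CPM (1.05). Casp8ap2, a component of the bodies in which histone mRNA is made, had a ratio of 1.06. Of these lists the ends were Tut4 (1.11) and Lsm11 (0.870), Nasp (1.12) and Chaf1b (0.816), and Slbp (1.09) and Gmnn (0.802). Of 38 G2 and M phase genes, 0 were higher and 5 lower (3.09% of all genes), with a median of -0.34 and ends at Hmgb2 (1.19) and Anln (0.503). Without barcodes holding other markers, 1 of 35, Ube2c, was lower (0.349% of all genes) and the median was -0.17. The 8 variants had a median of 0.02, with H1f10, itself a member of the histone set, lower and Macroh2a1 highest at 1.06.

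For Aged over Young, none of these lists had a gene past 1.5 times, and 67.3% of all genes were above a ratio of 1. In the S phase list 32 of 35 genes were above 1, with a median log2 ratio of 0.21, Hells highest (1.38) and Slbp lowest (0.928). In the G2 and M phase list 29 of 41 were above 1, with a median of 0.11, Hjurp highest (1.34) and Cks2 lowest (0.795). Of 16 processing genes 13 were above 1, with a median of 0.13 and ends at Casp8ap2 (1.23) and Tut4 (0.801); of 18 chaperone genes 12 were, with a median of 0.08 and ends at Hjurp (1.34) and Asf1b (0.840). All 8 measured genes of the list named replication-independent variants were below 1, with a median of -0.30 and Cenpa highest at 0.994. H3f3b, which encodes H3.3, was at 2910 CPM in Young and 2476 in Aged (ratio 0.851), H2az1 at 1177 and 904 CPM (0.768), and H2ax at 229 and 193 CPM (0.843). The list was mixed in how far its genes followed Mki67. In WT, KO, Young and Aged the Mki67 ratios were 4.75, 4.34, 6.23 and 6.26 for H2ax. For H3f3b they were 1.24, 1.06, 1.18 and 1.12. Without the barcodes holding other markers, 0 of the 7 variants then measured were above 1, with a median of -0.25. H1f10 fell below the minimum level there, and its ratio, given above, was then above 1. Over all cells, the variant list thus lay below 1 and 33 of 35 genes of the histone set above it, with H1f10 in both. Without barcodes above 20000 UMIs, 16 of 31 histone genes were above 1. In Mki67-positive cells without other markers 23 of 42 were. The variant list and the share of all genes above 1 were not counted in these settings.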

How the data were processed

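The deposited matrices hold raw UMI counts, as whole numbers for each gene and barcode. Per the file headers, Cell Ranger 6.1.1 wrote those of WT and KO, and 7.1.0 wrote the other two. Cell Ranger is named in version 6.0.0 by the submitters' processing notes, beside Seurat 3.2.3 and mm10. The sources used here do not say how intronic and multiply mapped reads were treated, or which annotation was used. From these counts, UMIs were summed over cells that passed the filters and divided by all UMIs of those cells (CPM). Poisson intervals of levels, conditional binomial intervals of ratios and Clopper-Pearson intervals of shares are exact, at 95%, and cover counting error only (Python 3.11.15, scipy 1.17.1, pandas 2.3.3); the ratio script was tested on simulated data. No doublet caller was run and doublets were not removed; barcodes above 20000 UMIs were left out as an alternative. Cells were thinned to 2000 UMIs with fixed random seeds where shares are compared. Groups came from the labels.

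The members and lists were chosen with earlier results of these data known. Named genes are the 12 with the highest mean level, those at the ends of each pair's ratios and of the Mki67 ratio, and a few chosen after their values were seen (H2bc4, H2ac13, H2bc21, H4c14, H2ac6, H3c4, H3c3, H2ac10, H3c2, H4c12, Hist1h4m, H2ac7, H3c13, H2bc15, and the lists by Mki67 ratio). The ends of the Mki67 ratio were taken among genes with at least 50 UMIs in each pair and at least 10 CPM in 1 library of each pair. Alternatives changed the gate, the filter on low counts, the scaling, the depth and the cells included; those on shared barcodes, on Mki67-positive cells, and on the absence of other markers within classes of cells were chosen after seeing the data. 1 marker list and 1 split of the cells are not reported here.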

Additional observations from a re-analysis of the deposited data

Results flagged for a closer look

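The barcodes that lacked a UMI of a CD3 or a CD8 gene were outside the comparisons, and histone transcripts were counted in them too. The summed histone level there was 1502 CPM in the 439 WT barcodes, 1098 CPM in the 257 KO barcodes, 1688 CPM in the 735 Young barcodes and 1522 CPM in the 546 Aged barcodes. Each value is above the limit that a count of 0 allows, which is 0.348, 1.13, 0.441 and 0.559 CPM. An Mki67 UMI was found in 24.4%, 12.1%, 25.2% and 19.8% of these barcodes.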

How the results depend on the processing

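The KO over WT ratio of the summed level was 0.989 without the CD3 and CD8 gate, 0.941 without barcodes above 20000 UMIs, 1.18 in Mki67-positive cells, 1.07 in those cells without other cell type markers, 1.02 in cells with neither gene without such markers, and 1.04 with median-of-ratios scaling, which moved the median of all genes by 0.05 (log2). The Aged over Young ratio was 1.22, 1.04, 1.19, 1.05, 1.15 and 1.17 under the same settings, 1.22 without other cell type markers and 1.14 in cells with neither gene; that scaling moved its median by -0.08. The count of genes higher in KO (0) became 1 of 39 in Mki67-positive cells (1.68% of all genes). It was 1 of 39 in those cells without other markers (1.30%). With no filter on low counts it was 1 of 63, where 11.0% of all genes were higher. The count lower in KO (3) became 0 without other cell type markers in all cells (0.349% of all genes). It was also 0 without them in Mki67-positive cells (0.759%) and in cells with neither gene (0.413%). It became 0 without barcodes above 20000 UMIs (0.755%) and 1 of 12 in cells with neither gene (1.52%). With at least 2 UMIs of CD3 and of CD8 genes it was 2 of 23 (2.79%). With median-of-ratios scaling it was 2 of 24 (2.76%), and H1f0 was lost in both. With no filter it was 5 of 63, where 24.4% of all genes were lower. For Aged over Young the count higher (0) became 1 of 34 with at least 2 UMIs of CD3 and of CD8 genes (2.64% of all genes). Without other markers it became 1 in all cells (2.98%), in Mki67-positive cells (4.07%) and in cells with neither gene (2.79%). With no filter it was 4 of 65, where 12.9% of all genes were higher. The count lower (0) became 1 of 35 with median-of-ratios scaling (4.36%) and 2 of 65 with no filter (26.4%). The log2 ratio of H1f10, KO over WT, reversed to 0.25 without other cell type markers, 0.45 in Mki67-positive cells without them and 0.19 in cells with neither gene without them. Cells and genes left out differ between these settings by construction; beyond that the cause was not tested.

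The Mki67 ratio of the sum in WT, KO, Young and Aged was 7.34, 9.57, 8.71 and 8.93 without the gate, 9.89, 10.5, 11.7 and 10.4 without other cell type markers, 8.60, 10.4, 8.39 and 7.68 in thinned cells, and 6.61, 7.84, 9.88 and 10.3 without the gene of highest level. The Mcm5 ratio was 4.03, 5.79, 4.12 and 5.01 without the gate, 5.27, 6.43, 5.07 and 5.71 without other markers and 2.55, 3.66, 3.23 and 3.36 in thinned cells. Without the gene of highest level it was 3.87 in WT, 4.98 in KO and 5.56 in Aged. All these ratios stayed above 1.

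No paired analysis was possible because each group has 1 library and the labels give no shared replicate numbers. For the same reason leaving out a replicate was not possible, and intervals describe these libraries and not the conditions. Single core histone genes share sequence, which limits what their separate counts mean.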
